A study of Danio rerio with 6 samples.

Results

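The genes of the cytosolic ribosomal proteins were examined in cells that were sorted from the heads of 48-hour zebrafish embryos. Every row of the deposited table whose symbol starts with rps and a digit, rpl and a digit, rplp or rpsa was taken, without the ribosomal S6 kinase genes. This gave 87 of 11218 rows, 35 named for the small subunit and 52 for the large subunit. Symbols alone chose the rows, though the family was taken up with earlier results of these data known. The pattern also takes in rps19bp1, which encodes a binding partner of the RPS19 protein, and rpl7l1, neither of which is a standard ribosomal protein. The tested animals were scarb2a mutants, and wild type siblings served as controls. The product of scarb2a is the fish counterpart of LIMP-2, a protein of the lysosomal membrane. Each library came from 5000 live cells out of a pool of 50 dissected heads, with 3 such biological replicates for each genotype: mutant 1, 2 and 3, and wild type 1, 3 and 4. Both genotypes carried the reporter that the labels write as TgBAC(scar2ba:KalTA4; UAS-mKate2), so that a red fluorescent protein under scarb2a regulatory sequence defined the sorted cells. The labels do not describe the mutant allele, and no cell type other than scarb2a+ cells is named for the sort.

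Ribosomal proteins assemble with ribosomal RNA into a small subunit, which reads the messenger RNA, and a large subunit, which forms the peptide bonds. Their messenger RNAs are among the most abundant of any growing cell. In vertebrates they share a tract of pyrimidines at the start of the transcript, through which the growth regulator mTORC1 controls their translation as a group. Progenitor cells, which divide and grow, are known to carry more of them than differentiated neurons. Several are also known for functions of single proteins: in humans, loss of a single copy of RPS19, RPL5 or RPL11 causes Diamond-Blackfan anaemia, and the products of RPL5 and RPL11 can hold back the p53 inhibitor MDM2.

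The libraries held between 1560238 and 2086990 counts over all genes, recovered from the deposited normalized counts. scarb2a itself was near the detection limit, with 1, 5.9 and 4.5 normalized counts in mutants 1, 2 and 3, against 3.5, 2.2 and 1.6 in wild type 1, 3 and 4, and gave no check of the labels (p = 0.7 in a two-sided exact permutation test, which cannot go below 0.1 in this design). Marker lists of several cell types moved with genotype, in a test where 10.9% of all genes were called higher and 8.5% lower. Of 15 mesenchyme markers tested, 13 were higher and none lower in the mutant, and the list took 0.256 to 0.306% of the counts in mutant libraries, against 0.112 to 0.133% in wild type libraries. For 12 epidermal markers 11 were higher (0.401 to 0.426% in mutants, 0.200 to 0.294% in wild type). Of 18 markers of cycling progenitors 10 were higher and none lower (0.356 to 0.379% in mutants, 0.278 to 0.289% in wild type). Neuronal markers went the other way, with 15 of 26 lower and none higher (1.055 to 1.085% in mutants, 1.452 to 1.485% in wild type). Of 21 radial glia markers 2 were higher and 7 lower (0.335 to 0.350% in mutants, 0.429 to 0.470% in wild type), and all 10 lens markers tested were lower (0.000989 to 0.00337% in mutants, 0.124 to 0.178% in wild type). Among endothelial and blood markers 6 of 10 were higher and 1 lower, with 0.00833 to 0.0697% in mutants and 0.00558 to 0.00862% in wild type. The markers listed at 0 in at least 1 library were ptn of the radial glia list, anxa1b and anxa1c of the epidermal list, 9 lens genes, among them cryba1b and crybb1, and hbbe1.1, hbae3, hbbe3 and mpx of the endothelial and blood list. The part of cell composition in the ribosomal protein differences below was not tested. In bulk samples, fewer cells of a type and less RNA per cell cannot be told apart.

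Ribosomal protein transcripts took a larger part of every mutant library than of any wild type library. Small subunit rows held 15.4, 15.7 and 15.0% of the counts in mutants 1, 2 and 3, against 14.6, 14.2 and 13.4% in wild type 1, 3 and 4. The means were 15.4 ± 0.351% in mutants and 14.1 ± 0.599% in wild type (SD, n = 3 each), a difference of 1.3 percentage points. Large subunit rows held 21.7, 22.1 and 21.2% in mutants 1, 2 and 3, against 20.3, 19.6 and 18.9% in wild type 1, 3 and 4. Their means were 21.7 ± 0.466% in mutants and 19.6 ± 0.693% in wild type (SD, n = 3 each), a difference of 2.07 percentage points. The groups did not overlap for either subunit. The spread among the wild type libraries was wider than the gap between mutant 3 and wild type 1, and the lowest share was that of wild type 4, which was also the deepest library. Exact binomial (Clopper-Pearson) 95% intervals, which cover counting error only, were far narrower than the spread between libraries. For the large subunit in wild type 1, the shallowest library, the interval ran between 20.2 and 20.4%. Because the sum of all rows is a score over the members, it was given no p-value.

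**Figure D1:**
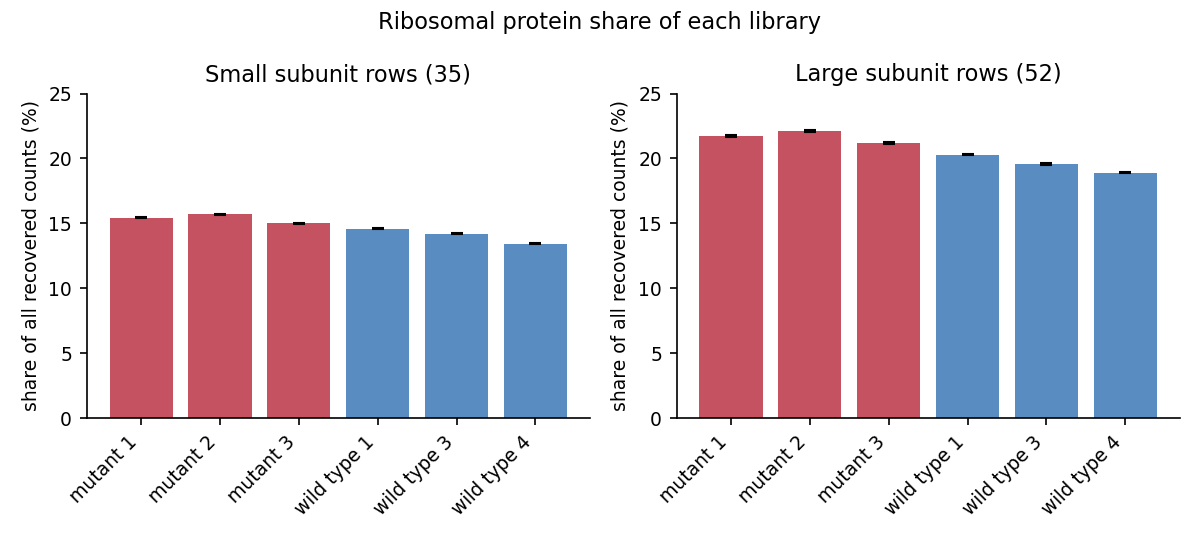
Share of all recovered counts, in percent, taken by the 35 small subunit rows (left) and the 52 large subunit rows (right) in each library. Bars are single libraries, and the short black marks are exact binomial 95% intervals (counting error only). The 3 mutant libraries lie between 15.0 and 15.7% for the small subunit and between 21.2 and 22.1% for the large subunit, above all wild type libraries.

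The balance between the subunits moved little. The summed large subunit counts were 1.407, 1.409 and 1.412 times the small subunit counts in mutants 1, 2 and 3, and 1.390, 1.379 and 1.409 times in wild type 1, 3 and 4. The ranges of the genotypes overlapped at wild type 4.

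Single rows were tested with limma on log2(normalized count + 1) over all 9647 genes with a mean of at least 5, with Benjamini-Hochberg adjustment at 0.05, and 84 of the 87 rows passed that filter. Of 35 small subunit rows 16 were higher in the mutant, none lower, and 19 did not pass. Of 49 large subunit rows tested 30 were higher, 1 lower, and 18 did not pass. Over all genes tested, 10.9% were called higher and 8.5% lower. The median log2 fold change was 0.23 for the small subunit and 0.27 for the large subunit, beside -0.01 over all genes tested. The fitted difference was above 0 for 34 of 35 small and 40 of 49 large subunit rows. Steps were small: rows called higher had log2 fold changes from 0.21 to 0.43. In 16 small and 30 large subunit rows all mutant libraries lay above all wild type libraries, which was the case for 17.9% of all genes tested. In 3 large subunit rows (rpl5b, rpl10a and rpl21_1) all mutant libraries lay below all wild type libraries, which held for 16.7% of all genes.

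The small subunit genes called higher included rps4x, rps7, rps8a, rps28, rps9, rps19, rps16, rps2, rps26l, rps6, rps27.1, rps14, rps10, rps29 and rps3. Among them is rps6, the target of the S6 kinases, at a log2 fold change of 0.28. The large subunit genes called higher included rpl7, rpl4, rpl5a, rplp0, rpl36, rpl17, rpl11, rpl26, rpl29, rplp2l, rpl13, rpl6, rpl35a, rpl24, rpl14, rpl7a, rpl37, rpl34, rpl18, rpl38, rpl15, rpl8, rpl35, rpl3, rpl23, rpl36a, rpl27, rpl23a and rplp1. Their proteins sit in different regions of the large subunit: that of rpl3 lies near the centre of peptide bond formation, those of rpl4 and rpl17 at the tunnel, and those of the stalk genes at the site of the GTP-using factors.

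**Figure D2:**
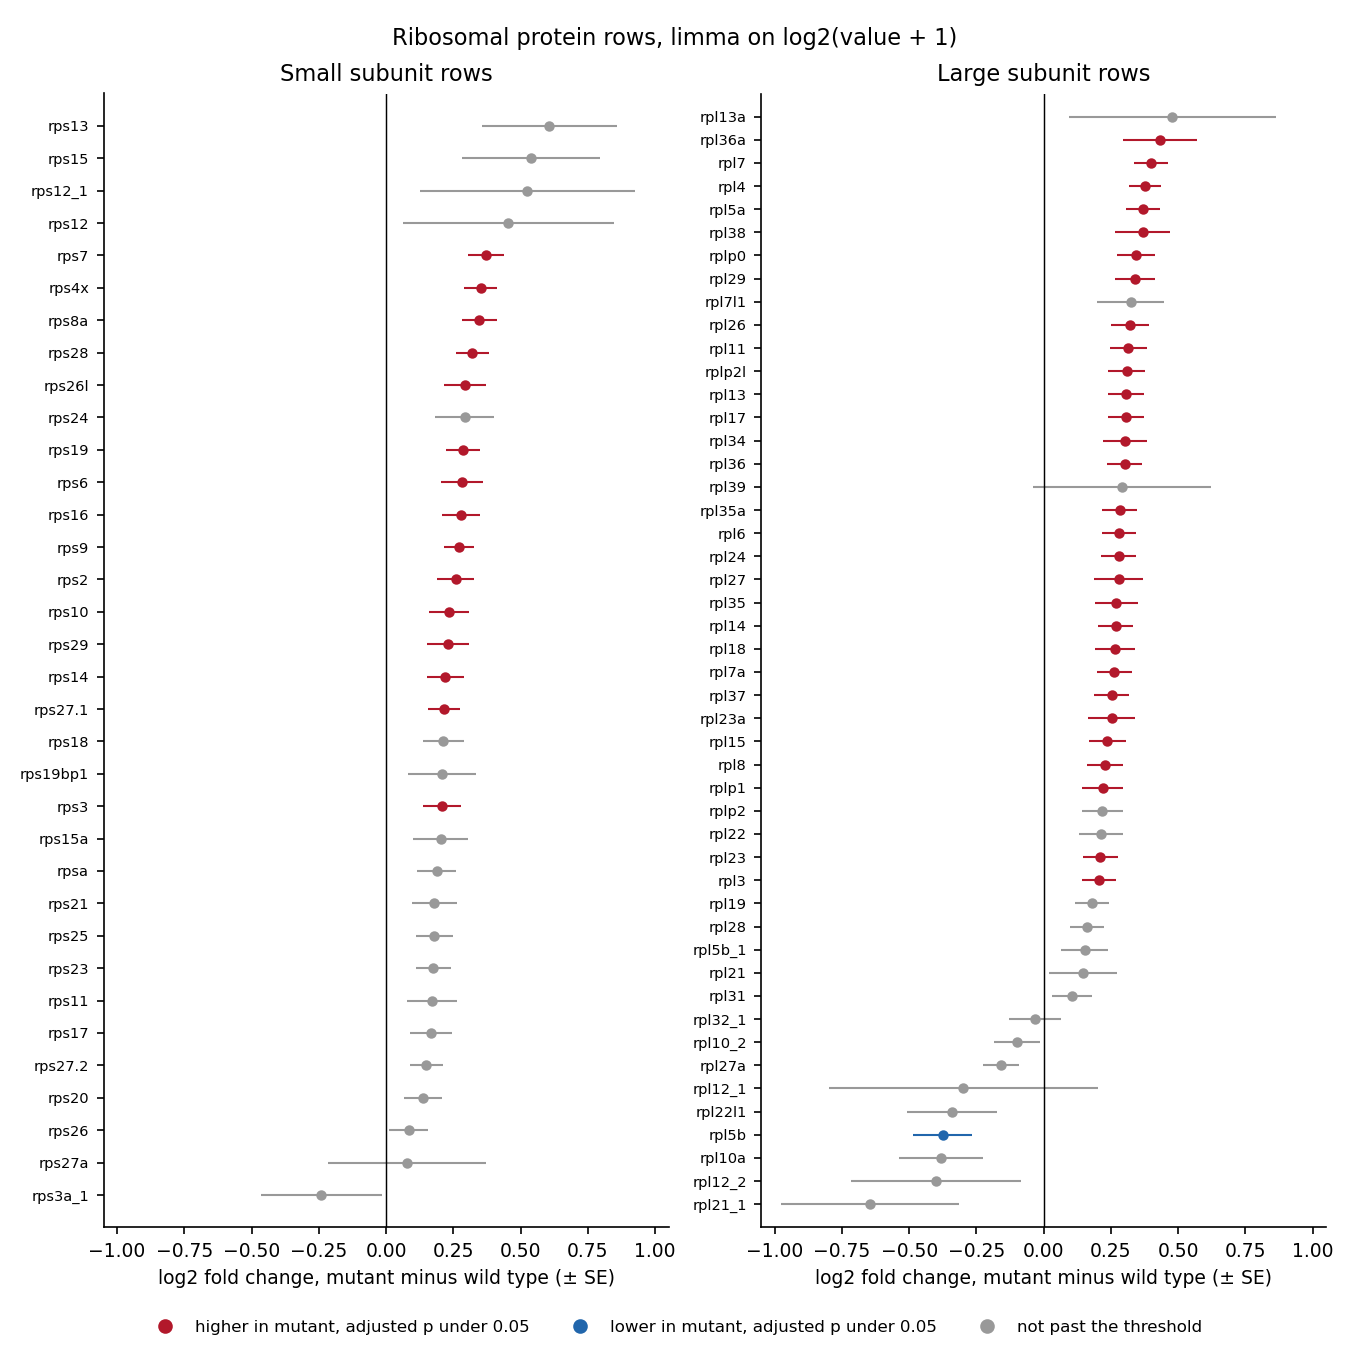
Fitted log2 fold change, mutant minus wild type, on the log2(value + 1) scale with its standard error, for the small subunit rows (left) and large subunit rows (right) that passed the filter on low values and are reported by name. Red rows were higher in the mutant, blue ones lower and grey ones not past an adjusted p of 0.05. Most abundant rows gather between 0.1 and 0.4, and rpl5b is the single blue row.

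Abundant rows were measured more precisely than low ones. The split at a mean of 1000 normalized counts was chosen after the values were seen. Above it lay 28 small and 37 large subunit rows, of which 16 and 28 were called higher and none lower. Their median standard error was 0.0685 on the log2 scale, against 0.251 for the 19 rows tested below it. Among 152 other genes that also had a mean of at least 1000, 27.0% were called higher and 17.1% lower, with a median log2 fold change of 0.02. In 32.9% of these other genes all mutant libraries lay above all wild type libraries. They were not matched to the members in level above that limit. Among the 65 abundant members the median log2 fold change was 0.26, and in 44 of them the mutant libraries lay above the wild type libraries.

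**Figure D3:**
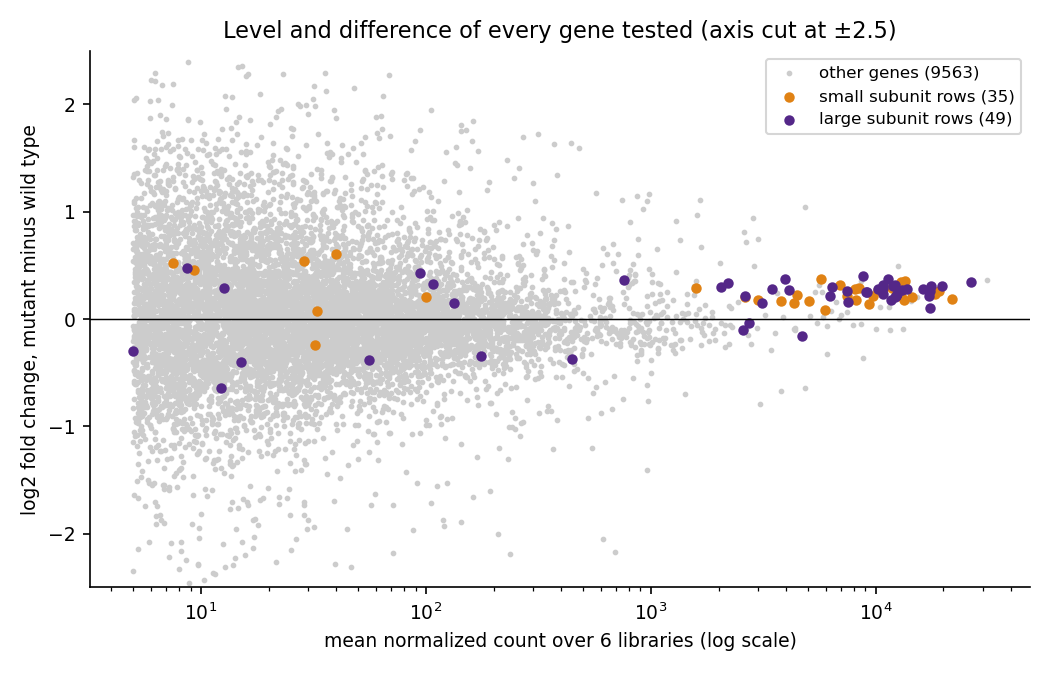
Fitted log2 fold change, mutant minus wild type, against the mean normalized count over all 6 libraries (log scale) for every gene tested, with the vertical axis cut at 2.5 in both directions. Orange points are small subunit rows, purple points large subunit rows and grey points the other genes. The abundant members form a band at a median of 0.26, above the line at 0.

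The libraries kept a common order across the abundant members. Wild type 4 had the lowest value of its group in 62 of 65 rows and mutant 3 in 49 of 65, while wild type 1 was the highest of its group in 51 and mutant 2 in 44. These rows therefore repeat the same library differences and are not independent of each other. The SD between libraries of one genotype was 6.08 times the counting error at the median in mutants and 6.49 times in wild type.

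Among small subunit proteins the calls with the smallest p were those of rps4x, rps7, rps8a, rps28, rps9 and rps19. rps4x, a gene on the X chromosome in humans, had 15340, 15459 and 14546 normalized counts in mutants 1, 2 and 3, against 12521, 11849 and 11180 in wild type 1, 3 and 4. All mutant values lay above all wild type values, and the log2 fold change was 0.35 ± 0.0616 (SE; limma adjusted p = 3.84e-04). rps7, which is needed to process the small subunit RNA, had 6235, 6760 and 6363 normalized counts in mutants, against 5072, 5281 and 4624 in wild type. Its log2 fold change of 0.37 ± 0.0654 was the largest of the called small subunit rows (adjusted p = 4.08e-04).

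rps8a had 14381, 15107 and 13982 normalized counts in mutants, against 12318, 11293 and 10628 in wild type (log2 fold change 0.35, limma adjusted p = 7.23e-04). rps28, a small protein near the exit of the messenger RNA channel, had 7697, 8028 and 7474 in mutants, against 6346, 6326 and 5903 in wild type (0.32, adjusted p = 8.27e-04). rps9 stood out by the closeness of its mutant values, 11243, 11245 and 11257 normalized counts, against 9477, 9268 and 9211 in wild type. Their SD of 7.59 was 0.0724 times the counting error, and the log2 fold change was 0.27 (adjusted p = 0.00196). Of the 65 abundant members, 3 had a mutant SD below the counting error, and the closeness was not read as a trait of rps9. rps19, the gene most often mutated in human Diamond-Blackfan anaemia, had 13768, 13024 and 12321 normalized counts in mutants, against 11322, 10590 and 10176 in wild type (0.29, adjusted p = 0.00327). These 6 genes, and no other small subunit row, kept their calls whichever library was left out.

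Other small subunit genes did not pass. rpsa, whose protein is also known as a precursor of a laminin receptor, had 25132, 22907 and 21866 normalized counts in mutants, against 22919, 19658 and 18907 in wild type. Mutants 2 and 3 lay below wild type 1, and the log2 fold change of 0.19 ± 0.0732 did not pass (limma adjusted p = 0.0810), though it did without wild type 1 (0.27, adjusted p = 0.00367). The extremes were found in rows of few counts. rps13 had 45.5, 59.4 and 38.1 normalized counts in mutants, against 24.2, 49.8 and 23.3 in wild type (0.61 ± 0.251, adjusted p = 0.101), and passed without wild type 3 (0.95, adjusted p = 0.00765). rps15 had 31, 46.6 and 25.4 in mutants, against 25.4, 28.1 and 16.1 in wild type (0.54 ± 0.257, adjusted p = 0.161). At the other end, rps3a_1 had 25.9, 36.7 and 25.4 in mutants, against 26.5, 43.3 and 35.3 in wild type, and was the single small subunit row with a negative difference (-0.24 ± 0.224, adjusted p = 0.509). rps27a, which encodes a ribosomal protein fused to ubiquitin, had 23.8, 58.4 and 22.7 in mutants, against 35.8, 21.7 and 34.5 in wild type (0.08 ± 0.295, adjusted p = 0.892). The genotypes overlapped in each of these rows.

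Among large subunit proteins rpl7 and rpl4 led. rpl7, whose protein binds the RNA of the large subunit, had 10075, 10114 and 9811 normalized counts in mutants 1, 2 and 3, against 8142, 7480 and 7147 in wild type 1, 3 and 4. The mutant values lay far above the wild type ones, and the log2 fold change was 0.40 ± 0.0626 (SE; limma adjusted p = 1.26e-04). rpl4, whose protein lines the tunnel through which the new peptide leaves, had 13192, 12769 and 12370 normalized counts in mutants, against 10244, 9759 and 9550 in wild type (0.38 ± 0.0594, adjusted p = 1.40e-04). rpl36 had 6913, 7512 and 6816 in mutants, against 5906, 5987 and 5350 in wild type (0.30, adjusted p = 0.00263). rpl17, another protein of the peptide tunnel, had 13157, 13936 and 12326 in mutants, against 11302, 10747 and 9856 in wild type (0.31, adjusted p = 0.00274). In all 4 genes the genotypes did not overlap, and the calls were kept whichever library was left out.

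The largest differences among rows tested for the large subunit belonged again to low rows. rpl36a had 101.4, 95.1 and 130.6 normalized counts in mutants, against 78.5, 86.6 and 74.7 in wild type (log2 fold change 0.43 ± 0.139, limma adjusted p = 0.0337). The call was lost without mutant 1 (adjusted p = 0.0508), without mutant 3 (0.30, adjusted p = 0.197), without wild type 1 (adjusted p = 0.0702) and without wild type 4 (adjusted p = 0.112). rpl13a, in mammals the protein of the GAIT complex that silences inflammatory messages, had 9.3, 11.9 and 9.1 in mutants, against 10.4, 6.5 and 4.8 in wild type, and did not pass (0.48 ± 0.384, adjusted p = 0.434). In rpl38, known from mice for its role in translating Hox messages and named after its values were seen, 746.2, 882.6 and 928.4 in mutants overlapped 642.9, 781.7 and 565.5 in wild type (0.37, adjusted p = 0.0168).

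The stalk of the large subunit, made of rplp0, rplp1 and rplp2, recruits the translation factors that use GTP. rplp0 had the highest level of all members in every library, 30103, 30871 and 27804 normalized counts in mutants, against 26062, 22851 and 21287 in wild type. Its log2 fold change was 0.34 ± 0.0712 (limma adjusted p = 0.00185). rplp2l, the more abundant of the rplp2 rows, had 20155, 20081 and 18430 in mutants, against 17343, 15579 and 14507 in wild type (0.31 ± 0.0685, adjusted p = 0.00306). rplp2 had 6540, 7423 and 6264 in mutants, against 6250, 5950 and 5193 in wild type, and narrowly did not pass (0.22 ± 0.0762, adjusted p = 0.0512). It passed without mutant 3 (adjusted p = 0.0385) and without wild type 1 (adjusted p = 0.0136).

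rplp1 had 17922, 20757 and 16915 normalized counts in mutants, against 17431, 15349 and 14917 in wild type, with mutant 3 below wild type 1. Its log2 fold change of 0.22 ± 0.0760 just passed (limma adjusted p = 0.0497). That call was lost without mutant 1 (adjusted p = 0.0874), without mutant 2 (0.13, adjusted p = 0.290), without wild type 3 (adjusted p = 0.200) and without wild type 4 (adjusted p = 0.171).

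Several members are listed as a pair or triplet of rows with 1 protein number, either under related gene symbols or as rows that the table marks with a suffix. How the counting divided reads between near-identical copies is not stated, so the value of a single row is uncertain. Over 13 such pairs the share of the first row in the pair's counts was compared between genotypes. In 6 pairs the 3 mutant and 3 wild type libraries did not overlap, each with p = 0.1 in a two-sided exact permutation test, the smallest p this design allows, and an adjusted p of 0.217 over the 13 pairs. None could therefore pass. The 6 pairs are not separate, since rpl5b is the first row both against rpl5a and against rpl5b_1. The same comparison was not made for pairs of other genes.

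rpl5, which carries the ribosomal RNA of smallest size into the large subunit, was split over rpl5a, rpl5b and rpl5b_1. rpl5a had 4425, 4703 and 4293 normalized counts in mutants, against 3582, 3542 and 3264 in wild type, and was higher by 0.37 ± 0.0646 on the log2 scale (limma adjusted p = 3.77e-04). rpl5b had 446.1, 316 and 411.6 in mutants, against 560.9, 465.5 and 486 in wild type. It was the single member called lower, with -0.38 ± 0.110 (adjusted p = 0.0210), and the genotypes did not overlap. The call was lost without mutant 2 (-0.23, adjusted p = 0.137) and without wild type 1 (-0.296, adjusted p = 0.0863).

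The row rpl5b_1 had 3784, 2749 and 3402 normalized counts in mutants, against 3044, 2867 and 2954 in wild type, with mutant 2 below every wild type library (log2 fold change 0.15 ± 0.0872, limma adjusted p = 0.252), and passed without mutant 2 (0.28, adjusted p = 0.0163). Summed over both rpl5b rows the values were 4230, 3065 and 3814 in mutants, against 3605, 3332 and 3440 in wild type. The sum differed by 0.09 on the log2 scale with overlapping genotypes (exact permutation test, two-sided, p = 0.6). Within that sum rpl5b made up 10.5, 10.3 and 10.8% in mutants, against 15.6, 14.0 and 14.1% in wild type. The share of rpl5b in that sum was thus lower in every mutant library than in every wild type library. For the sum itself, mutant 2 lay below every wild type library, while mutants 1 and 3 lay above them all. With so few libraries the test of the sum cannot show that it was unchanged. Why the value of rpl5b was lower was not tested.

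Of rps26, whose protein touches the messenger RNA just before the start codon, and its paralogue rps26l, only rps26l was called. rps26l had 9611, 9763 and 8370 normalized counts in mutants, against 8254, 7735 and 6694 in wild type (log2 fold change 0.29 ± 0.0774, limma adjusted p = 0.0114). rps26 had 6386, 6411 and 5606 in mutants, against 6242, 5865 and 5258 in wild type (0.08 ± 0.0727, adjusted p = 0.470). The share of rps26l in the pair was 60.1 ± 0.239% in mutants and 56.6 ± 0.521% in wild type (SD, n = 3 each), with all 3 mutant values between 59.9 and 60.4% and all wild type values between 56.0 and 56.9%. The call of rps26l itself was lost without mutant 1 (adjusted p = 0.0623), mutant 2 (0.0609) or wild type 4 (0.0709).

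rps27.1 had 10398, 10531 and 10447 normalized counts in mutants, against 9615, 8908 and 8535 in wild type (log2 fold change 0.22, limma adjusted p = 0.0178). Its call was lost without mutant 1 (adjusted p = 0.0534), mutant 2 (0.0624), wild type 3 (0.0929) or wild type 4 (0.0753). rps27.2 had 4565, 4581 and 4550 in mutants, against 4264, 4096 and 3987 in wild type (0.15, adjusted p = 0.0890). The share of rps27.1 in that pair was 69.6 ± 0.107% in mutants and 68.6 ± 0.574% in wild type (SD, n = 3 each).

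rpl22l1, a paralogue of rpl22 known from mice and zebrafish for an opposing role in blood cell development, had 137.6, 214 and 120.6 normalized counts in mutants, against 180.1, 238.2 and 168.7 in wild type (log2 fold change -0.34 ± 0.166, limma adjusted p = 0.170). rpl22 had 2617, 3020 and 2802 in mutants, against 2337, 2783 and 2186 in wild type (0.21 ± 0.0819, adjusted p = 0.0766). Neither passed with all libraries. Without mutant 2 rpl22l1 was lower (-0.58, adjusted p = 0.00741), and without wild type 3 rpl22 was higher (0.31, adjusted p = 0.0169). rpl22l1 made up 4.13 to 6.62% of the pair in mutants, against 7.15 to 7.88% in wild type.

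For rpl7l1, named after rpl7 and known as a factor of ribosome assembly, the values were 108.7, 117.9 and 131.5 in mutants, against 103.9, 89.9 and 91.6 in wild type (log2 fold change 0.32, limma adjusted p = 0.0744). Its share beside rpl7 was 1.18 ± 0.130% in mutants and 1.24 ± 0.0436% in wild type (SD, n = 3 each), and the groups overlapped. rplp2l took 74.4 ± 1.26% of its pair in mutants and 73.2 ± 0.703% in wild type (SD, n = 3 each), again with overlap.

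**Figure D4:**
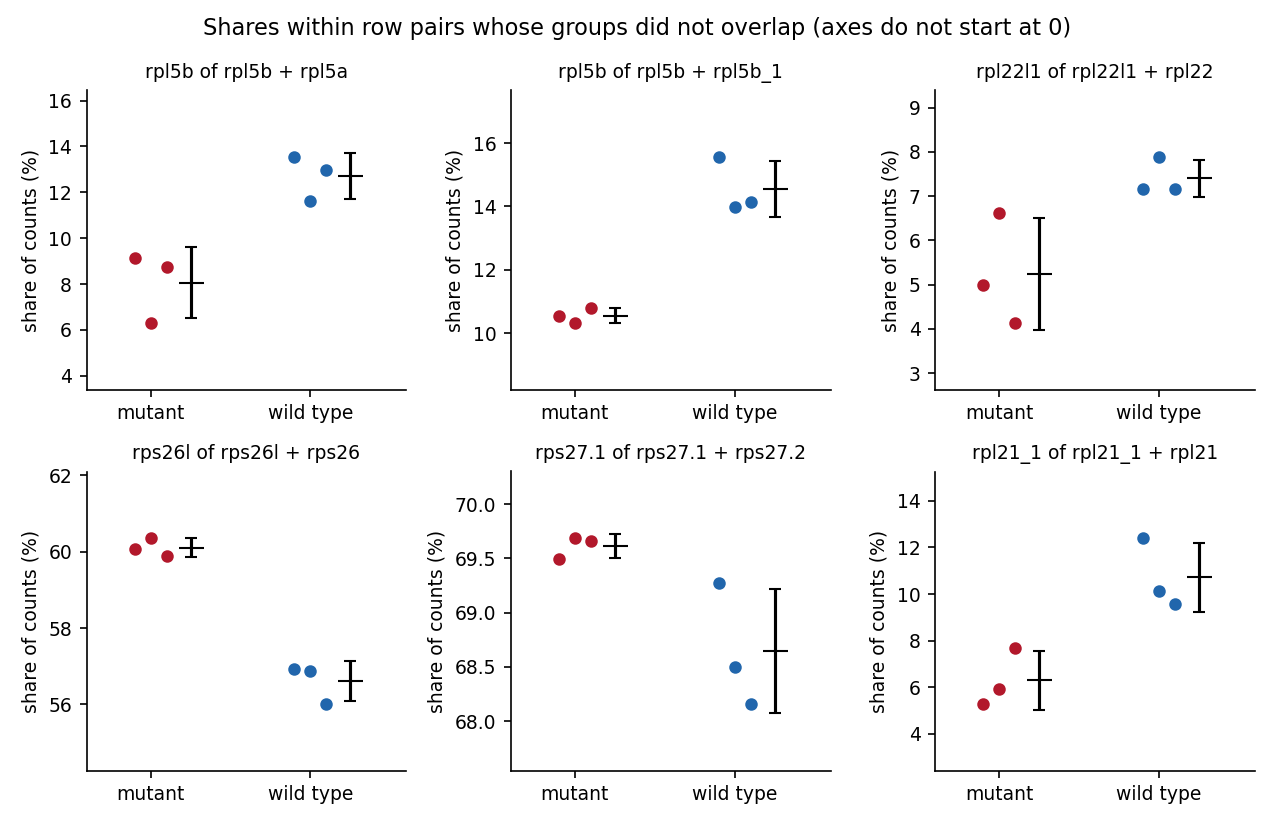
Share of the first named row in the counts of a pair of rows, in percent, for the 6 pairs whose genotypes did not overlap. Points are libraries, mutant in red and wild type in blue, and the black marks are means with SD (n = 3); the axes do not start at 0. rps26l and rps27.1 make up more of their pairs in mutants, and rpl5b, rpl22l1 and rpl21_1 less. The row rpl21_1 held only 7 to 17 counts per library.

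A group of rows was listed at far lower levels than the rest of the family. In all, 20 rows had a mean under 200 normalized counts, 7 of the small and 13 of the large subunit, a limit chosen after the values were seen. They include proteins that every ribosome is known to hold, such as rpl9, rpl12, rpl13a, rpl39, rps12, rps13 and rps15, and whether these rows hold all reads of their genes is not known. rpl9 had 6.2, 1 and 1.8 normalized counts in mutants, against 2.3, 3.2 and 3.2 in wild type, from 9 counts in each genotype. rpl32 had 3.1, 4 and 1.8 in mutants, against 2.3, 7.6 and 2.4 in wild type, whereas rpl32_1 had 2484, 3197 and 2474 in mutants, against 2809, 3102 and 2411 in wild type (log2 fold change -0.032, limma adjusted p = 0.861). rpl12 had 4.1, 3 and 5.4 in mutants, against 3.5, 8.7 and 4.8 in wild type. These 3 rows, rpl9, rpl12 and rpl32, lay below the filter and were not tested.

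The other rows of rpl12 were as low. rpl12_1 had 3.1, 5 and 4.5 normalized counts in mutants, against 4.6, 9.7 and 3.2 in wild type, and rpl12_2 had 11.4, 9.9 and 17.2 in mutants, against 13.9, 14.1 and 24.1 in wild type (log2 fold changes -0.30 and -0.40, limma adjusted p = 0.736 and 0.427). rps12 had 11.4, 8.9 and 11.8 in mutants, against 10.4, 9.7 and 4 in wild type, and rps12_1 had 7.2, 8.9 and 10.9 in mutants, against 5.8, 4.3 and 8 in wild type. Both overlapped between genotypes and did not pass (adjusted p = 0.471 and 0.407). rpl21 had 130.4, 157.5 and 130.6 in mutants, against 138.5, 134.2 and 106 in wild type (0.15, adjusted p = 0.470). rpl21_1 had 7.2, 9.9 and 10.9 in mutants, against 19.6, 15.2 and 11.2 in wild type. With -0.65 ± 0.330 it was the lowest fitted difference among the rows tested, and it did not pass (adjusted p = 0.192). It rests on 29 counts in mutants and 45 in wild type.

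The size of the members' differences depended on how the libraries were scaled. The deposited values divide each library by a factor that equals the median ratio of its counts, so that a typical gene has no difference. When all libraries were brought to equal totals, the median of all tested genes was -0.12 on the log2 scale, and the median log2 fold change was 0.12 for the small and 0.15 for the large subunit. A factor per library moves nearly every gene by the same amount. By construction, such scaling therefore leaves the gap between the members and the median of all genes nearly unchanged. That constancy, as distinct from the size of the gap, was not read as a result. The calls with equal totals were 11 small subunit rows higher and none lower, and 19 large subunit rows higher and 3 lower, where 8.26% of all genes were called higher and 13.5% lower. Of the 46 rows called higher with the deposited scaling, 30 were also called higher with equal totals, among them rps4x, rps7, rps8a, rps28, rps9, rps19, rpl7, rpl4, rpl5a, rpl36, rpl17, rplp0 and rplp2l, and rps26l. The 16 calls lost were those of rps3, rps10, rps14, rps27.1, rps29, rpl3, rpl8, rpl15, rpl23, rpl23a, rpl27, rpl34, rpl35, rpl36a, rpl38 and rplp1.

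Scaling to the total of all genes that are not members gave 15 and 26 rows higher, and 2 large subunit rows lower, where 9.89% of all genes were called higher and 9.89% lower. Quantile normalization, which gives every library the same set of values, left 5 small and 9 large subunit rows higher and medians of 0.07 and 0.05, where 10.1% of all genes were called higher and 8.52% lower. Because members fill much of the top of every library, that method sets their upper values equal by its construction.

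**Figure D5:**
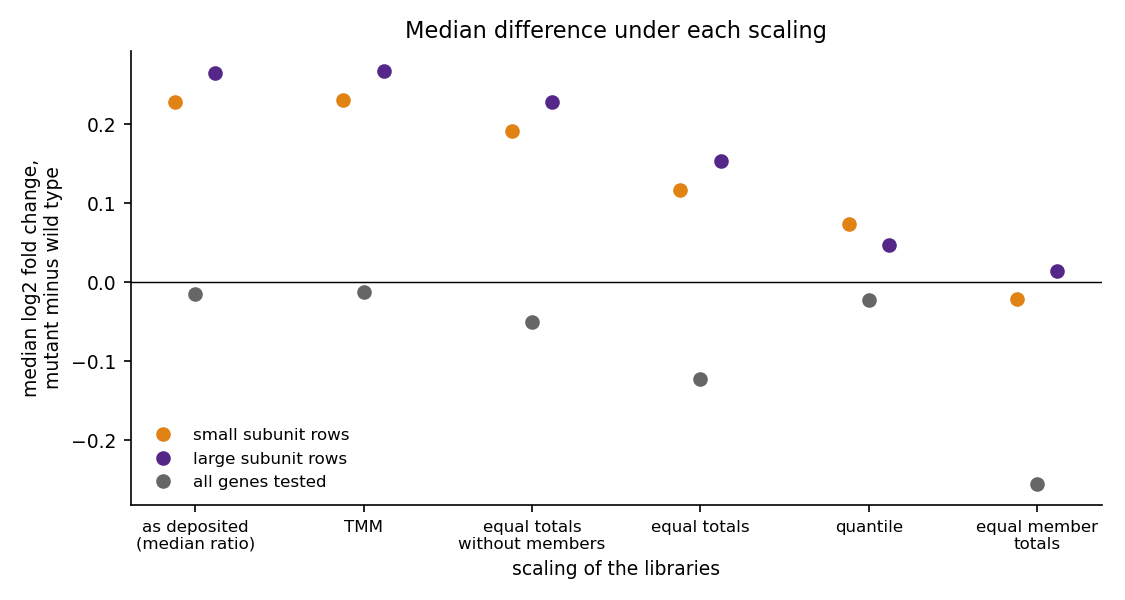
Median fitted log2 fold change, mutant minus wild type, of the small subunit rows (orange), the large subunit rows (purple) and all genes tested (grey) under 6 ways to scale the libraries. The subunit medians were 0.23 and 0.27 with the deposited scaling, and 0.12 and 0.15 with equal totals. Except in quantile normalization, the gap to all genes stays nearly the same between scalings by construction, whatever its size.

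Set against the family's own total, a scaling that removes the members' common difference by its construction, few members stood apart. With every library scaled to the same sum over the members, rpl7 was higher (0.15, limma adjusted p = 0.0262). Lower were rps26 of the small subunit (-0.17, adjusted p = 0.0227) and 7 rows of the large subunit, rpl27a, rpl5b, rpl10a, rpl22l1, rpl10_2, rpl32_1 and rpl31. Over all genes 5.47% were called higher and 20.9% lower under this scaling. rpl27a, a large subunit gene, had 4360, 4682 and 4213 normalized counts in mutants, against 5329, 4889 and 4596 in wild type. Most abundant members were higher in mutants, while rpl27a was lower in each mutant library than in wild type 1 and 3. Its difference was -0.16 with the deposited scaling (adjusted p = 0.114), -0.27 with equal totals (adjusted p = 7.98e-04) and -0.41 against the family (adjusted p = 1.11e-05). rpl10a, whose protein forms the other, mobile stalk of the large subunit, where spent transfer RNA leaves, had 50.7, 44.6 and 49.9 in mutants, against 69.3, 65 and 56.2 in wild type. This row is among those with a mean under 200, and whether it holds all reads of its gene is not known. It was at -0.38 as deposited (adjusted p = 0.0932) and -0.49 with equal totals (adjusted p = 0.0312). rpl27a, rpl10a, rpl10_2, rpl32_1 and rpl31 were named for these calls, after their values were seen.

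Lists of genes that build ribosomes or work beside them were counted in the fit with the deposited scaling, where 10.9% of all genes were called higher and 8.5% lower. Of 94 genes of ribosome biogenesis tested 35 were higher and none lower, with a median log2 fold change of 0.38. riok2, a kinase of late small subunit assembly, had 77.6, 75.3 and 79.8 normalized counts in mutants, against 24.2, 33.6 and 30.5 in wild type (1.38 ± 0.169, limma adjusted p = 7.59e-06). nop58 and nop56, which guide the methylation of ribosomal RNA, were higher by 0.68 and 0.61. Together these genes took 0.637 to 0.658% of the counts in mutants and 0.505 to 0.541% in wild type.

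Of 57 translation factors 20 were higher and 1 lower, with a median log2 fold change of 0.18. eef2b, the factor that moves the ribosome along, had 14787, 15001 and 14253 normalized counts in mutants, against 11283, 10429 and 9675 in wild type (0.49 ± 0.0644, limma adjusted p = 1.64e-05). eif5a, which frees stalled ribosomes, and eef1da, a nucleotide exchange factor, were higher by 0.52 and 0.60. The factor called lower was eef1a1a (-0.58, adjusted p = 0.0221), named because it went against its list. With equal totals 14 factors were higher and 5 lower, where 8.26% of all genes were higher and 13.5% lower.

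Of 20 other genes whose messages are known in vertebrates to carry the same pyrimidine tract, 10 were higher and none lower. Their median log2 fold change was 0.22. This list shares eef2b, eef1da, eef1g (0.38) and further genes called higher with the translation factors, and it also holds gnb2l1, given below. The lists are therefore not separate counts. With equal totals, against the same shares over all genes, 7 of the 20 genes were higher and 4 lower. Of the 17 tested genes of RNA polymerase I and growth regulators 5 were higher and 1 lower. This list took 0.116 to 0.120% of the counts in mutants and 0.119 to 0.125% in wild type, with overlap. mycb, a Myc gene and so a known activator of ribosome production, rose by 0.60 and the polymerase subunit gene twistnb by 0.69, while max, the partner of Myc, fell by 0.36 on the log2 scale (limma adjusted p = 7.05e-05, 8.89e-04 and 0.00368). With equal totals 2 of this list were higher and 2 lower, near the shares over all genes (8.26% and 13.5%).

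Genes that encode ribosomal proteins under other symbols were named after their values were seen. gnb2l1, which encodes the small subunit protein RACK1, had 16985, 16229 and 15529 normalized counts in mutants, against 15145, 14177 and 13050 in wild type (log2 fold change 0.20, limma adjusted p = 0.0334). faua, which encodes a ribosomal protein fused to a ubiquitin-like protein, was at 0.17 and did not pass (adjusted p = 0.103). Mitochondrial ribosomal protein genes, which serve another ribosome, had a median of -0.02, with 2 of 59 higher and 1 lower. Over all genes 10.9% were called higher and 8.5% lower. The mitochondrial list took 0.280 to 0.289% of the counts in mutants and 0.304 to 0.324% in wild type.

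Among 13 targets and regulators of p53, the response that impaired ribosome assembly is known to switch on, 4 were higher and none lower. Their median log2 fold change was 0.07. The shares over all genes were 10.9% higher and 8.5% lower. sesn2, a stress sensor that restrains mTORC1, had 29, 32.7 and 34.5 normalized counts in mutants, against 6.9, 9.7 and 12.9 in wild type (1.64 ± 0.276, limma adjusted p = 2.53e-04). btg2 rose by 0.44 and phlda3 by 0.97. The call of phlda3 was lost without mutant 1 (adjusted p = 0.0536) or wild type 3 (adjusted p = 0.0512).

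The calls rested on the model of the spread as well as on the libraries. limma with the mean-variance trend lends the abundant members the small spread of abundant genes. Without that trend limma called none of the 84 rows, with a smallest adjusted p of 0.0862 for rpl7, although 5.99% of all genes were still called higher and 4.45% lower, while 5 small and 10 large subunit rows were higher at an unadjusted p under 0.05. edgeR's quasi-likelihood test on the recovered counts called 17 small and 32 large subunit rows higher and 1 large subunit row lower (11.1% higher and 8.4% lower over all genes), and DESeq2 13 and 27, with 1 large subunit row lower (6.37% higher and 4.18% lower over all genes). Leaving out wild type 4 brought the counts to 6 and 17, where 845 of 9663 genes were called higher. Leaving out mutant 1 or mutant 2 gave 9 each for the small subunit, with 22 and 20 for the large one. Over all genes 802 of 9645 and 778 of 9658 were then called higher, against 1053 of 9647 with all libraries. Whichever library was left out, 6 small and 14 large subunit rows kept their calls.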

How the data were processed

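The genome build was danRer11, per the submitters' processing notes; no aligner, counter or use of molecular tags is named there or in the labels. Per the labels' protocols, bulk MARS-seq was used, a 3′-end method. The authors deposited 1 table of normalized values (signal) for 11218 genes and 6 libraries, with symbols and no coordinates. Of its 67308 values, 99.997% came out as whole counts (tolerance 0.0505), and the recovered counts served for shares, edgeR and DESeq2. Each library's factor matched DESeq2's median ratio. No libraries were duplicates: within a genotype, chi-square over its degrees of freedom was 1.77 to 2.26.

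The members and lists were chosen with earlier results of these data known. Differences were tested with limma (trend, log2(value + 1)) and no covariate beside genotype, run on genes whose mean reached 5. Named were, per subunit, the 6 rows called in each direction with the smallest p, the 2 largest and 2 smallest fold changes, rows sharing a protein number, rows below the filter, the stalk genes and rpsa, and up to 3 called genes per related list. The procedure was tested on simulated data. Of 87 symbols, 79 were found among RefSeq's genes (GRCz12tu); no sequence is shown, and a few genes are counted but not reported by name here. Replicate numbers 1 and 3 occur in both genotypes. Over all genes tested, same-numbered libraries did not deviate together (correlations 0.0429 and -0.00952), which does not settle it for the members, as given below. Alternatives were pseudocounts of 0.5 and 5, other filters, scalings and models, a replicate block and leaving out each library. Versions: Python 3.11.15 (scipy 1.17.1, pandas 2.3.3, matplotlib 3.10.9, numpy 2.4.6) and R 4.3.3 (DESeq2 1.42.0, limma 3.58.1, edgeR 4.0.16).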

Additional observations from a re-analysis of the deposited data

How the results depend on the processing

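Both the counts of calls and the medians moved with the scaling and the model. Rows called higher numbered 16 (small) and 30 (large) as reported. They were 0 and 1 against the members' own total, with 1 and 7 lower. Quantile normalization gave 5 and 9, with 2 large rows lower. Without the trend the numbers were 0 and 0, with 0 lower. A threshold of 0.01 gave 8 and 18, with 0 lower. The share called over all genes at 0.01 is not given here, so these 2 counts have no background beside them. With equal totals 19 large subunit rows were higher and 3 lower, and with totals without members 2 were lower. The small and large subunit medians were 0.12 and 0.15 under equal totals, and 0.074 and 0.047 after quantile normalization. Against the members' total they were -0.021 and 0.015, and the small subunit median changed sign. Scaling to the members' total removes their common difference by its construction, so its calls and medians concern single rows against the family. Leaving out 1 library gave 6 to 21 small and 17 to 31 large subunit rows higher, and 0 and 0 to 1 lower. Over all genes 778 to 983 were then called higher, against 1053 with all libraries. The medians were 0.18 to 0.28 and 0.22 to 0.30, and the differences in share 0.974 to 1.56 and 1.72 to 2.42 percentage points. A replicate block (replicate number as a factor, 1 residual degree of freedom) gave 16 and 29 rows higher and 3 large rows lower. Its medians were 0.14 (small) and 0.17 (large), and 898 of 9647 genes were called higher and 699 lower. Only numbers 1 and 3 occur in both genotypes, so the block compares mutants 1 and 3 with wild type 1 and 3 alone. In the check above, same-numbered libraries did not deviate together over all genes tested, most of which were measured less precisely than the abundant members. The members' shares, however, were higher in library 1 than in library 3 of both genotypes. For the small subunit they were 15.4 and 15.0% in mutants 1 and 3, and 14.6 and 14.2% in wild type 1 and 3. For the large subunit they were 21.7 and 21.2% in those mutants, and 20.3 and 19.6% in those wild type libraries. Whether the numbers mark shared batches was not tested. Under that block rpl5b, rplp1, rpl23a, rpl34 and rps29 lost their calls. Not called in the main fit but higher under the block were rpl19 (0.11), rpl5b_1 (0.28) and rpsa (0.14). The 3 rows called lower were rpl22l1 (-0.68), rpl27a (-0.25) and rpl32_1 (-0.25), none of them called in the main fit.

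Of 1064 values of single named genes under the alternatives, 939 kept direction and side of the threshold. Directions changed in 23 of them, called genes included. Against the members' total, which also brought the median of all genes to -0.26, these were rpl21 (-0.10), rpl22 (-0.037), rpl5b_1 (-0.098), rplp1 (-0.031), rplp2 (-0.032), rps26 (-0.17), rps27.1 (-0.035), rps27.2 (-0.10), rps27a (-0.16) and rpsa (-0.062). Equal totals gave -0.028 for rps26 and -0.030 for rps27a, and quantile normalization -0.045 for rps26 and -0.010 for rplp1. Under the replicate block rpl12_2 was at 0.0022, rpl21 at -0.063, rps26 at -0.016 and rps27a at -0.25. Leaving out 1 library moved rpl32_1 between -0.15 and 0.052 and rps27a between -0.35 and 0.31. The cause was not tested. The 3 rows below the filter held 9 to 17 counts per genotype and were not tested.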
